A study of Mus musculus with 17 samples.

Results

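The type I interferon response of the dorsal hippocampus was followed through 9 genes, Stat2, Irf7, Usp18, Isg15, Ifit1, Ifit3, Oasl2, Bst2 and Rtp4, out of 24498 gene symbols in the count table. They were taken by name, as genes known to act in or to be induced by type I interferon signaling, and all 9 were present with counts in every library. Bulk RNA sequencing covered 17 libraries in 6 groups. Male wild-type (WT) and male ACSS2 knockout (KO) mice had received PBS or tau isolated from human Alzheimer's disease brain (AD tau), with 3 libraries in each of these 4 groups. Female mice had received only AD tau, with 2 WT and 3 KO libraries, so that no female PBS group existed. All mice were injected into the dorsal hippocampus at 6 months of age. ACSS2 makes acetyl-CoA from acetate, and the KO was carried in the germline rather than in a chosen cell type. KO and WT mice were born to separate homozygous pairs, and all mice were perfused with paraformaldehyde before the RNA was taken.

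Type I interferons signal through the receptor chains IFNAR1 and IFNAR2, whose kinases phosphorylate STAT2. It is part of ISGF3, a complex that binds the interferon-stimulated response element and switches on a large set of antiviral genes. In the brain, microglia, endothelial cells and astrocytes all respond to interferon, and a standing low level of the program is detectable without infection.

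Each library held between 14183131 and 22463635 counts, and levels are given in CPM, that is, relative to this total. A gene without a count may have had up to 3 counts, or 0.134 to 0.212 CPM depending on the library, by counting error only. The targeted gene, Acss2, measured 3.07 to 8.81 CPM over 9 KO libraries, while 8 WT libraries had 44.0 to 54.6 CPM. Library 713 of the male KO Tau group stood apart by its choroid plexus markers, which summed to 4123 CPM, while the other 16 libraries lay between 27.0 and 596 CPM. Markers of neurons (summed to at least 10079 CPM) and astrocytes (at least 3850 CPM) were high in every library. Hippocampal markers were not: in male KO PBS library 752, 11 of 16 dentate granule and pyramidal cell markers were at their lowest, among them Iyd at 0.0605 CPM (median over libraries 3.89), Dsp at 0.907 CPM (31.7) and Fibcd1 at 19.8 CPM (148). Male comparisons that use library 752 are therefore also given without it. Female WT Tau library 331 had the lowest summed pyramidal cell markers, 369 CPM, beside 380 CPM in library 752 and a median of 833 CPM. It also had the lowest neuron marker sum (10079 CPM) and the highest oligodendrocyte marker sum (12086 CPM). Its dentate granule cell markers summed to 392 CPM, above the median of 355 CPM.

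The members were read by their roles. Stat2, a subunit of ISGF3, lies on chromosome 10 (chr10:128270559-128292849, plus strand, GRCm38). Irf7, the transcription factor that amplifies interferon production, lies at chr7:141262706-141266481 on the minus strand, and 45 of its exon bases overlap Phrf1 on the opposite strand. Usp18, which removes ISG15 from proteins and dampens receptor signaling, lies at chr6:121245906-121270917. Isg15, the ubiquitin-like modifier itself, lies at chr4:156199424-156200818. Ifit1 (chr19:34640871-34650009) and Ifit3 (chr19:34583531-34588731) encode neighboring RNA-binding antiviral proteins. Oasl2 (chr5:114896936-114912234) encodes a relative of the oligoadenylate synthetases. Bst2 (chr8:71534255-71537456, minus strand) encodes tetherin, which holds budding virus at the cell surface, and Rtp4 (chr16:23520291-23614222) encodes an interferon-induced receptor transporter protein. Ifit1 and Ifit3 have close relatives, among them Ifit3b at 5.02 CPM on average, and a count per symbol does not show how reads shared with such copies were handled. Usp18 shares 124 exon bases with Gm44148 on the opposite strand, and Rtp4 shares 296 with Gm45338 on its own strand, neither of which was analysed here. Reads in these overlaps, and those of Irf7 and its antisense neighbor, cannot be told apart with certainty, since counting used strand but the library kit named in the labels is not the directional version.

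Promoter sequence was available from RefSeq (GRCm38.p6) for 7 members and covered 250 bases before to 50 after each start site. The core of the interferon-stimulated response element was searched on both strands as GAAA, any 2 bases and GAAA, with overlapping matches allowed. It occurred in 5 of the 7 promoters, against 1131 of 32851 promoters in the whole table (3.44%). The 5 windows are shown because they carry the element that ISGF3 recognizes. Each runs 5′ to 3′ on the strand of its gene, with 30 bases on either side where the table allowed, and capitals mark the matches.
Stat2: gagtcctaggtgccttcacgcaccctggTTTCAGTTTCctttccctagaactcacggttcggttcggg
Isg15: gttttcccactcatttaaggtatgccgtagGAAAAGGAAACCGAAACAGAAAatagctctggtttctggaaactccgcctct
Ifit1: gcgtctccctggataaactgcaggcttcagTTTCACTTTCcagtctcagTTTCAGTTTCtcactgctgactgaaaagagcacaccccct
Ifit3: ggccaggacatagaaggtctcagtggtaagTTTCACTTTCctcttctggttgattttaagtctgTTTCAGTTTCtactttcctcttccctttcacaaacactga
Bst2: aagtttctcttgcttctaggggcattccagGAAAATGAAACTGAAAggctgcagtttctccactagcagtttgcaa

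The windows lie at chr10:128270248-128270315 (Stat2), chr4:156200845-156200926 (Isg15), chr19:34640755-34640843 (Ifit1), chr19:34583343-34583446 (Ifit3) and chr8:71537557-71537632 (Bst2). Isg15 held 3 overlapping matches, the first base at -78 relative to the start site, and Bst2 held 2 from -130. Ifit1 (-104 and -85) and Ifit3 (-156 and -122) held 2 separate matches each, on the strand opposite to the gene, and Stat2 held 1 at -222. The Irf7 and Oasl2 promoters did not hold these letters. Among other interferon-stimulated genes 21 of 45 genes with a promoter entry held the element, and among interferon-inducible GTPases 9 of 10. A match is a description of the sequence and is no measurement of binding.

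In CPM without scaling to gene length, Stat2 was the highest member, with a median of 27.5, and Ifit3 followed at 8.01. Scaled to the merged exon length of each gene, the median over 17 libraries was 4.64 CPM per kilobase for Stat2, 4.61 for Bst2 and 4.59 for Ifit3, which did not differ beyond the spread of the libraries (4.00 to 6.20, 2.78 to 9.42 and 2.59 to 10.4). Isg15 followed at 2.15 CPM per kilobase. Ifit1 (0.903), Rtp4 (0.784), Irf7 (0.579), Oasl2 (0.543) and Usp18 (0.355) were the lowest, with overlapping ranges. The merged exons of Irf7 cover its whole gene span of 3776 bases, which lowers its scaled level. Usp18 rested on only 10 to 51 counts per library. Stat2 was also the steadiest member, since its highest library was 1.55-fold above its lowest, while the other 8 members spanned 3.39-fold (Bst2) to 7.15-fold (Irf7).

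The scatter among libraries of one group was large for 8 of the 9 genes. The biological coefficient of variation estimated by edgeR was 0.105 for Stat2 and 0.241 (Rtp4) to 0.380 (Usp18) for the others. Its median over those 8 genes was 0.319, beside 0.148 over all 15594 genes tested and 0.202 over 3087 genes of like abundance. The 8 genes also varied together. Pearson r over the 17 libraries had a median of 0.83 across their 28 pairs (0.60 to 0.95), and 0.73 (0.49 to 0.93) when each group's mean was subtracted, beside a median of -0.001 over all pairs of genes. Stat2 stood outside this pattern, with r of -0.55 to -0.26 with the other members and -0.13 to 0.10 after the group means were subtracted. These correlations describe 17 libraries that share depth and tissue composition.

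The steady member is described first. Stat2 was at 36.7, 26.1 and 30.3 CPM in male WT PBS (libraries 791, 792 and 793), at 27.9, 29.3 and 28.7 CPM in male WT Tau (771, 772 and 773), at 26.5, 27.5 and 26.7 CPM in male KO PBS (751, 752 and 753) and at 29.1, 24.5 and 27.0 CPM in male KO Tau (711, 712 and 713). In females it was at 23.7 and 27.1 CPM in WT Tau (331 and 341) and at 26.5, 28.6 and 29.3 CPM in KO Tau (314, 324 and 325). Each of the other 5 groups overlapped with the PBS-injected WT males.

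The induced members showed another order, given here for the same libraries in the same sequence. Ifit3 was at 5.86, 5.84 and 6.15 CPM in male WT PBS, 4.53, 9.97 and 5.56 in male WT Tau, 4.51, 8.83 and 8.01 in KO PBS males and 8.26, 8.03 and 7.76 in male KO Tau. In females Ifit3 reached 18.2 and 12.0 CPM in WT Tau and 6.98, 17.2 and 15.9 in KO Tau. Thus 4 of the 5 female libraries were above every male library, and library 314 lay inside the male range. Oasl2 repeated this with 2.90, 3.46 and 3.88 CPM in male WT PBS, 2.21, 5.10 and 3.44 in male WT Tau, 1.78, 3.26 and 5.45 in KO PBS males and 3.41, 3.02 and 3.91 in male KO Tau. Female Oasl2 was at 9.90 and 7.61 CPM in WT Tau and at 3.10, 8.27 and 8.52 in KO Tau. Again library 314 was the female library that fell among the males.

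Rtp4 was at 1.26, 1.03 and 1.91 CPM in male WT PBS, 1.67, 2.52 and 1.23 in male WT Tau, 0.862, 1.69 and 1.60 in KO PBS males and 1.39, 1.56 and 1.27 in male KO Tau. In females it was at 5.33 and 3.78 CPM in WT Tau and at 2.19, 2.32 and 3.79 in KO Tau. The male WT Tau library 772 was the single male library above any female library. Ifit1 was at 1.92, 1.91 and 2.33 CPM in male WT PBS, 1.49, 5.42 and 1.97 in male WT Tau, 1.47, 2.66 and 2.43 in KO PBS males and 2.08, 2.40 and 2.82 in male KO Tau. Its female values were 8.34 and 5.43 CPM in WT Tau and 2.33, 5.33 and 6.16 in KO Tau. Library 772 thus stood with the 4 high female libraries for Ifit1, while its group mates were among the lowest.

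The regulators Irf7, Usp18 and Isg15 behaved alike across libraries. Irf7 was at 2.58, 2.17 and 1.73 CPM in male WT PBS, 1.19, 3.12 and 1.82 in male WT Tau, 0.761, 1.51 and 2.88 in KO PBS males, 2.52, 1.77 and 1.98 in male KO Tau, 5.44 and 3.56 in female WT Tau and 2.19, 3.83 and 4.66 in female KO Tau. Usp18 ran from 0.507 to 1.88 CPM in the males, both ends in male KO PBS (751 and 753), and from 0.776 (314) to 3.11 CPM (325) in the females. Isg15 ran from 0.964 (751) to 2.61 CPM (753) in the males and from 1.62 (314) to 4.69 CPM (331) in the females. For all 3 genes the lowest library was the male KO PBS library 751 and the lowest female library was 314.

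**Figure D1:**
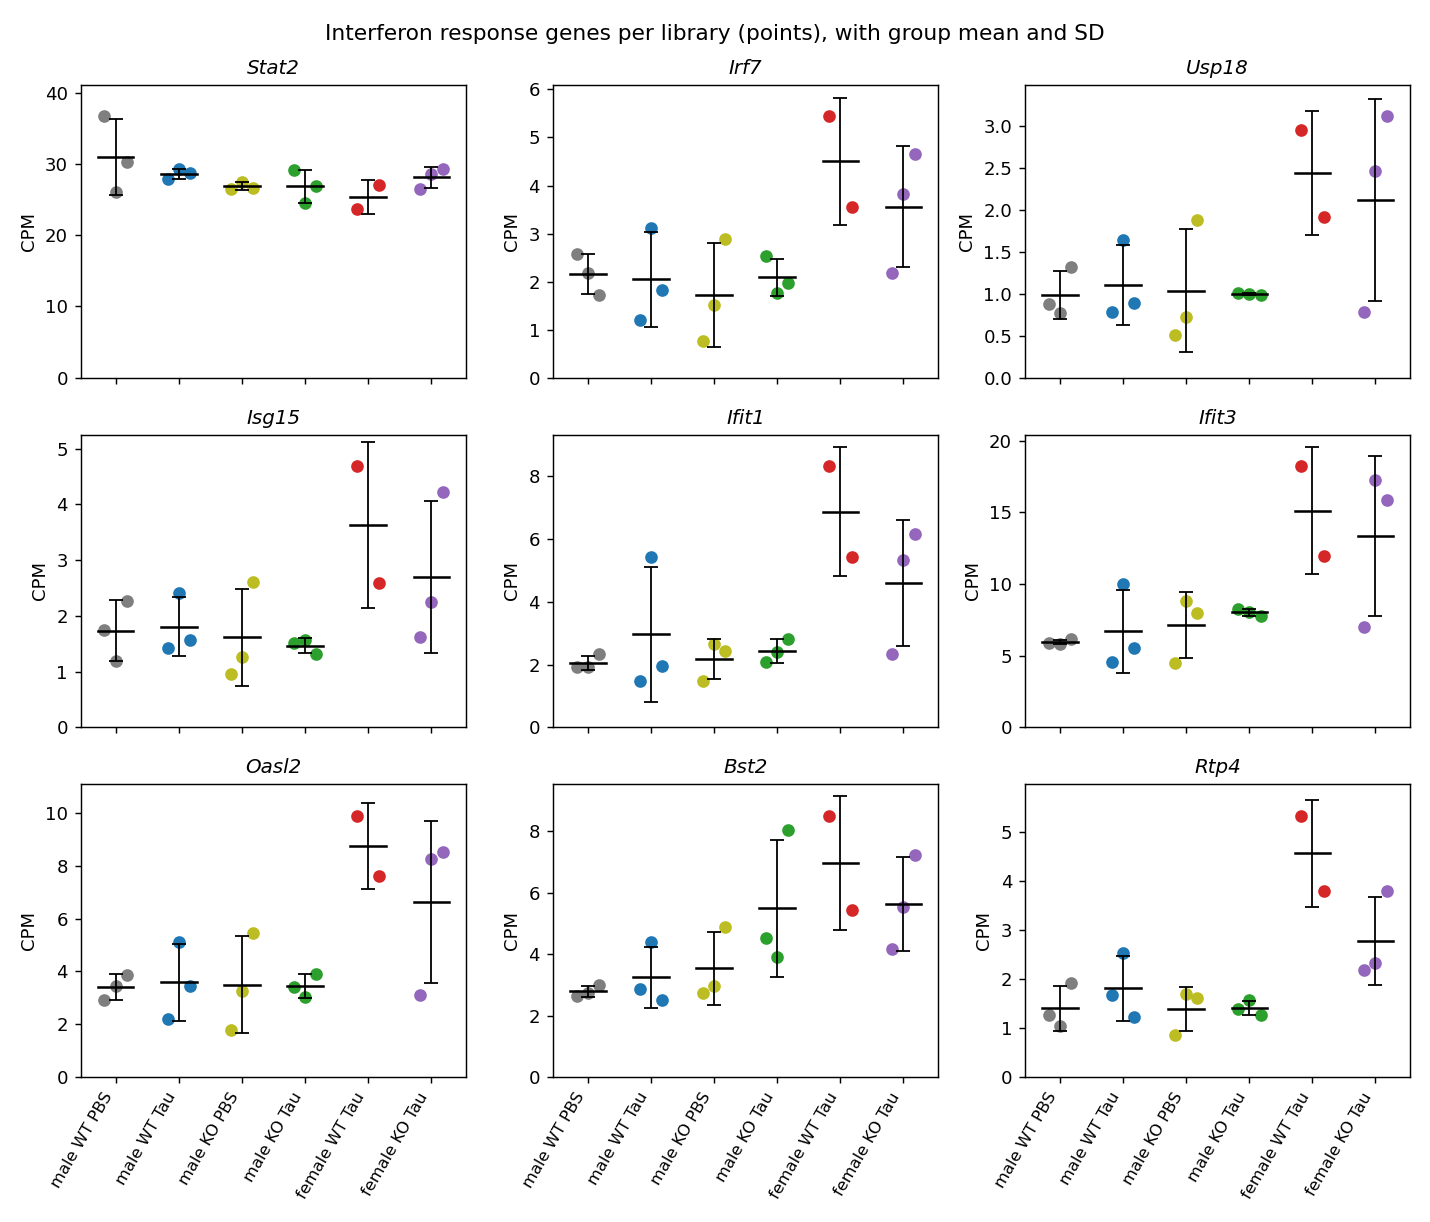
Levels of the 9 interferon response genes in CPM (vertical axes, each from 0) in 6 groups (horizontal axis). Points are libraries, the horizontal bar is the group mean and the error bar the SD (n = 3, or 2 in female WT Tau). For the 8 genes other than Stat2 both female groups have the highest means, and library 314 is the lowest female point for each of them.

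For each of these 8 members the group means ranked female WT Tau first and female KO Tau second. For Oasl2 the means were 8.76 ± 1.62 CPM in female WT Tau (SD, n = 2), 6.63 ± 3.06 in female KO Tau (SD, n = 3) and 3.41 ± 0.488, 3.58 ± 1.45, 3.50 ± 1.85 and 3.44 ± 0.443 in male WT PBS, WT Tau, KO PBS and KO Tau (SD, n = 3 each). The 4 male means differed by less than the smallest of their SDs, and the female means by less than the larger of theirs. Library 331 was the highest of the 17 for 7 members and library 751 the lowest for 7.

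**Figure D2:**
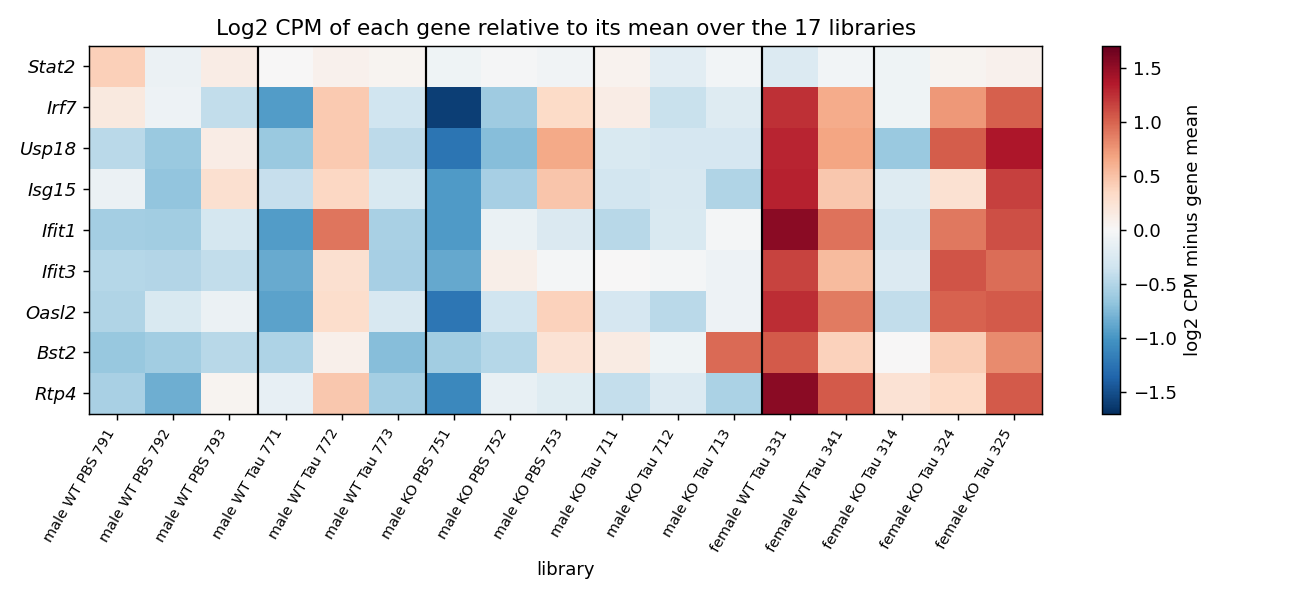
Log2 CPM of the 9 genes (rows) in the 17 libraries (columns, black lines between groups), each relative to the mean of its gene. Red columns mark libraries 331, 341, 324 and 325, the blue column 751 is the lowest library, and Stat2 changes little.

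The comparison of sexes asked whether the members differed between female and male mice that had all received AD tau. Rtp4 was 2.12-fold higher in females (log2 fold change 1.08, SE 0.22, edgeR adjusted p = 0.0103) and Oasl2 2.06-fold higher (1.04, SE 0.27, adjusted p = 0.0202). Ifit3 (log2 fold change 0.88, SE 0.25, edgeR adjusted p = 0.0277), Irf7 (0.88, SE 0.27, 0.0364), Isg15 (0.87, SE 0.26, 0.0367) and Usp18 (1.03, SE 0.33, 0.0423) also passed a false discovery rate (FDR) of 0.05. Thus 6 of the 9 members were called higher in females, whereas 11.4% of all 15419 genes tested were. Over both directions 23.8% of genes were called, and 12.4% were lower in females. Ifit1 (log2 fold change 0.99, SE 0.33, edgeR adjusted p = 0.0521), Bst2 (0.49, SE 0.24, 0.143) and Stat2 (-0.12, SE 0.08, 0.295) did not pass.

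The median log2 fold change of the 9 members, female minus male, was 0.88, beside -0.01 over all genes tested. For no member did the 5 female libraries lie entirely above the 6 male Tau libraries (0 of 9, against 6.76% of all genes). Library 314 was below library 772 for every member. For Bst2 the male library 713 was also above 4 female libraries, and for Stat2 the ranges of both sexes nearly coincided. Male and female libraries carried numbers from different series, 711 to 793 and 314 to 341. Whether these numbers mark cohorts was not stated, so that sex and such a cohort cannot be told apart.

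**Figure D3:**
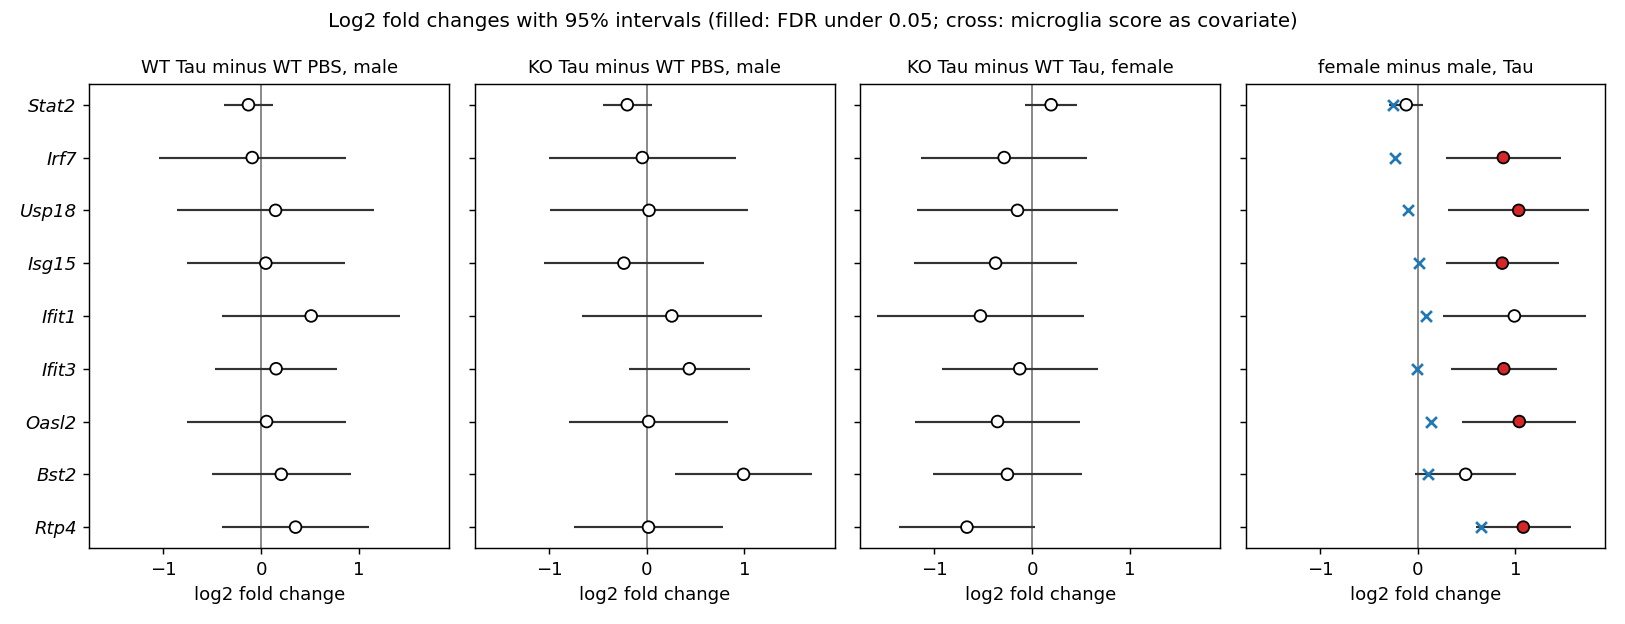
Log2 fold changes of the 9 genes (horizontal axes) with 95% confidence intervals (lines) in 4 comparisons, filled circles where the edgeR FDR was under 0.05. The 6 filled circles all belong to the female minus male comparison, where crosses give the estimates with a microglia marker score as covariate.

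The number of members called depended on which library was left out, and so did the number of calls over all genes. Leaving out female WT Tau library 331 left 0 of 9 called by edgeR, 5 with an unadjusted p under 0.05, where 3.99% of all genes were still called in either direction, and the remaining female WT library was then assumed to vary like the other groups. The count was 1 without male library 773 and 2 without any one of male libraries 771, 712 and 713 or female libraries 324 and 325. It was 6 or 7 without any one of 711, 341, 772 and 314. Over all genes the fits without a library other than 331 called between 10.3% (without 773) and 40.7% (without 711). The log2 fold changes of the 8 members other than Stat2 stayed between 0.33 (Bst2 without 331) and 1.37 (Ifit1 without 772) in all of these fits.

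Markers of several other cell types moved with sex in the same tissue. The microglia markers, 8 of 14 of which were higher in females and none lower, summed to 742 to 922 CPM in the female libraries and 560 to 766 CPM in the male Tau libraries. Markers of border macrophages and monocytes, 7 of 8 tested of which were higher, summed to 11.6 to 28.9 CPM in females and 5.05 to 12.2 CPM in male Tau libraries. Astrocyte markers (3 of 8 higher) summed to 7376 to 8097 CPM against 3850 to 7120 CPM, and endothelial markers (5 of 9 higher) to 234 to 345 CPM against 178 to 262 CPM. These counts stand beside 11.4% of all genes called higher in females.

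Among neuron markers 1 of 8 was higher and 3 were lower in females, and 2 of 8 oligodendrocyte markers were higher. Over all genes 11.4% were higher and 12.4% lower. The call rule passed 1 of 7 meningeal and fibroblast markers (Lum, higher), 1 of 8 pyramidal cell markers (Wfs1, lower), 0 of 12 choroid plexus markers, 0 of 8 dentate granule cell markers and 0 of 1 tested lymphocyte marker. Of these 3 lists with no call, 5, 0 and 0 markers had an unadjusted edgeR p under 0.05. No marker of any list was at 0 in all libraries. In bulk tissue fewer cells of a type and less RNA per cell cannot be told apart.

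With a microglia marker score as a covariate edgeR called 0 of 9 members, 0 with an unadjusted p under 0.05, while 0.0389% of all genes were called, and 8 of the 9 log2 fold changes, female minus male, fell between -0.25 (Stat2) and 0.14 (Oasl2). Rtp4 kept 0.65. With a choroid plexus marker score as a covariate 1 member (Rtp4) was called (10.5% of all genes), with a median log2 fold change of 0.92 over the 9 members. The microglia score differs between the sexes itself, so that this fit and the unadjusted fit answer different questions, and the part of microglia in the difference was not tested.

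**Figure D4:**
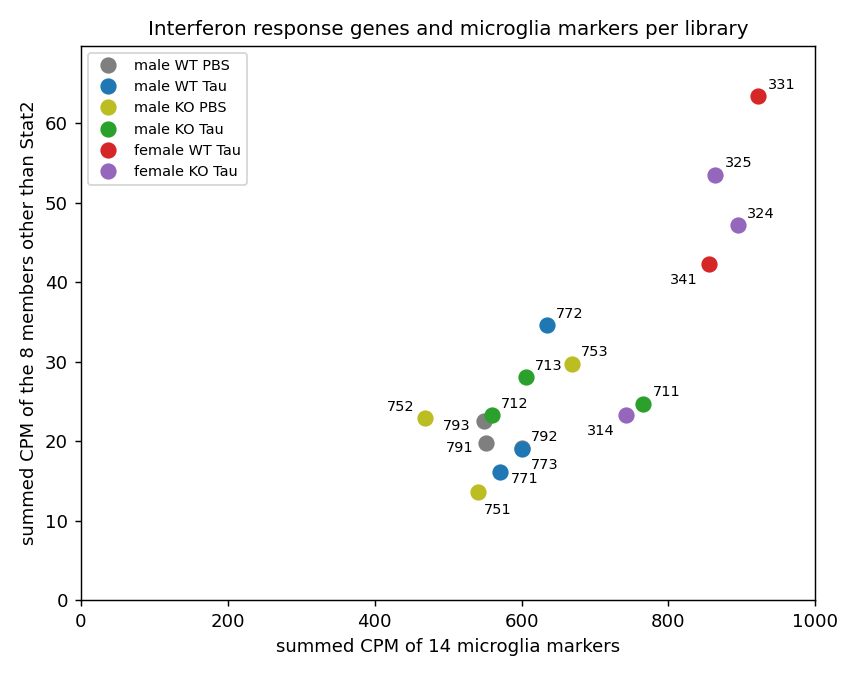
Summed CPM of the 8 interferon response genes other than Stat2 (vertical axis), a sum led by Ifit3, against summed CPM of 14 microglia markers (horizontal axis), with 1 point per library and colors for the 6 groups. The 4 female libraries 331, 325, 324 and 341 lie at 42.3 to 63.4 and 855 to 922 CPM, whereas female library 314 and male library 711 lie close together at 23.3 and 742 CPM and at 24.7 and 766 CPM.

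The values of single libraries in both sums were as follows. Male KO Tau library 711 and female KO Tau library 314 had microglia marker sums of 766 and 742 CPM, above the other male libraries, and member sums without Stat2 of 24.7 and 23.3 CPM. Male WT Tau library 772 had a microglia marker sum of 635 CPM and the highest male member sum, 34.6 CPM. Male KO PBS library 752, which alone had a lymphocyte marker sum of 8.34 CPM (at most 2.92 CPM elsewhere), had a member sum of 22.9 CPM.

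The rest of the interferon pathway was read from lists. Transcripts of interferons themselves were at or near 0. Ifnb1, Ifna1, Ifna4, Ifnk, Ifnl2 and Ifnl3 had no count in any library, which allows at most 0.212 CPM per library, and Ifng had 3 counts in all 17 libraries together. The type I receptor chains Ifnar1 and Ifnar2 were at 42.4 to 52.4 and 16.1 to 22.5 CPM, and neither passed in any comparison with a direction. Of 5 tested ligand and receptor genes, Ifngr1, a chain of the type II receptor, was higher in females (log2 fold change 0.31, SE 0.08, edgeR adjusted p = 0.0213).

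Of 14 signal transduction genes 2 were higher and 1 lower in females, a share near that of all genes. Irf9, the DNA-binding partner of Stat2, was higher (log2 fold change 0.54, SE 0.13, edgeR adjusted p = 0.0156), as was Irf5 (0.56). Irf9 was at 9.24 to 16.3 CPM in females and 7.67 to 10.7 CPM in male Tau libraries, so the groups overlapped.

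Other interferon-stimulated genes went the way of the members. In females 28 of 53 tested genes were higher (11.4% of all genes were) and 1 was lower (Shisa5, log2 fold change -0.49), with a median log2 fold change of 0.64. The genes with the largest differences were barely expressed in male Tau libraries and also low in females, where Zbp1 had 49 counts in all libraries together. Ifi204, a cytosolic DNA-sensing family member, was at 0.705 to 1.85 CPM in females and 0 to 0.219 CPM in male Tau libraries. Cxcl10, a chemokine, was at 0.635 to 2.67 against 0.148 to 0.712 CPM, and Zbp1, a nucleic acid sensor that can trigger cell death, at 0.353 to 0.695 against 0.0596 to 0.219 CPM.

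Interferon-inducible GTPases were higher for 5 of 14 tested genes and lower for 0, with a median log2 fold change of 0.56. The shares of all genes were 11.4% higher and 12.4% lower. Gbp3 (log2 fold change 1.00), Gbp5 (0.86) and Gbp2 (0.68) led this list. Of 14 nucleic acid sensors and adaptors 4 were higher and 0 lower, led by Tlr8 (1.96), Tlr7 (1.36) and Aim2 (0.81). Tlr8 was near the floor, with 51 counts in all female libraries together and 16 in all male Tau libraries. Tlr7, an endosomal sensor of single-stranded RNA encoded on the X chromosome, was at 6.22 to 9.53 CPM in females and 1.88 to 4.04 CPM in male Tau libraries. Of 17 negative regulators 1 was higher (Ptpn2, 0.35) and 3 were lower, again a share near that of all genes (Irf2bp1, -0.63, Pias4, -0.52, and Adar, -0.51).

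In WT males the question was whether AD tau alone moved the members. None of the 9 was called by edgeR (0% of 15098 genes were) and none had an unadjusted p under 0.05 (1.86% of genes did). The highest estimate was for Ifit1, with a log2 fold change, Tau minus PBS, of 0.51 (95% interval -0.40 to 1.43), and the lowest for Stat2, with -0.13 (-0.38 to 0.12). The Ifit1 value rested on library 772 and became -0.25 without it, with which the median over the members also turned from 0.15 to -0.24. Intervals of the 9 members reached from -1.05 to 1.43, so that changes of about 2-fold were within the error of 3 libraries against 3.

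In PBS-injected males KO and WT were compared next. None of the 9 members was called (0.00662% of genes, which is Acss2 alone), and none had an unadjusted p under 0.05 (4.42% of genes). Log2 fold changes, KO minus WT, ran from -0.27 for Irf7 to 0.40 for Bst2, and the Irf7 estimate was 0.08 without the low library 751. Without library 752 none was called either, and the median over the 9 members was 0.10 in place of 0.08.

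KO Tau males were then compared with WT PBS males, the contrast that joins both factors. Here edgeR called none of the members (0.00662% of genes), while 1 member, Bst2, had an unadjusted p under 0.05 (6.33% of genes). Bst2 was at 2.63, 2.74 and 2.98 CPM in male WT PBS and at 4.54, 3.91 and 8.05 CPM in male KO Tau. The groups did not overlap, and the KO Tau mean was raised by library 713. The log2 fold change, KO Tau minus WT PBS, was 0.99 (SE 0.32, 95% interval 0.29 to 1.69, edgeR adjusted p = 0.783).

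The male WT Tau and KO PBS libraries overlapped with both groups, with 2.86, 4.38 and 2.51 CPM (771, 772 and 773) and 2.74, 2.96 and 4.90 CPM (751, 752 and 753) of Bst2. In females Bst2 was at 8.51 and 5.43 CPM in WT Tau (331 and 341) and at 4.16, 5.54 and 7.21 CPM in KO Tau (314, 324 and 325), all above the 3 male WT PBS libraries. The second member without overlap was Ifit3, at 7.76 to 8.26 CPM in male KO Tau and 5.84 to 6.15 CPM in male WT PBS (log2 fold change 0.44, SE 0.28, edgeR adjusted p = 0.826). These 2 of 9 members compare with 6.29% of all genes whose KO Tau libraries were all higher. The lowest estimate was that of Isg15, at -0.23. The median over the 9 members was 0.02.

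Choroid plexus markers were read beside Bst2 in these groups. They summed to 63.2 to 4123 CPM in male KO Tau, with the highest value in library 713, and to 49.8 to 76.3 CPM in male WT PBS. Without library 713 the Bst2 log2 fold change was 0.61, and with the choroid plexus score as a covariate it was 0.33. Library 712 had a choroid plexus sum of 63.2 CPM and a Bst2 level of 3.91 CPM, above each WT PBS library. The Bst2 difference was called by 1 of 24 alternatives, DESeq2 on these groups without library 711 (log2 fold change 1.11, DESeq2 adjusted p = 0.0391, range over the alternatives 0.0391 to 1.00), a fit that called 7.13% of all genes. The study's own test was DESeq2 with 2 KO Tau libraries, without naming the one left out, so the same fit was run without each in turn. Over all genes these fits called 1029 without 711, 52 without 712 and 7 without 713. Without 712 the Bst2 adjusted p was 0.148, and without 713 it was 1.00. The part of choroid plexus tissue in the Bst2 values was not tested.

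**Figure D5:**
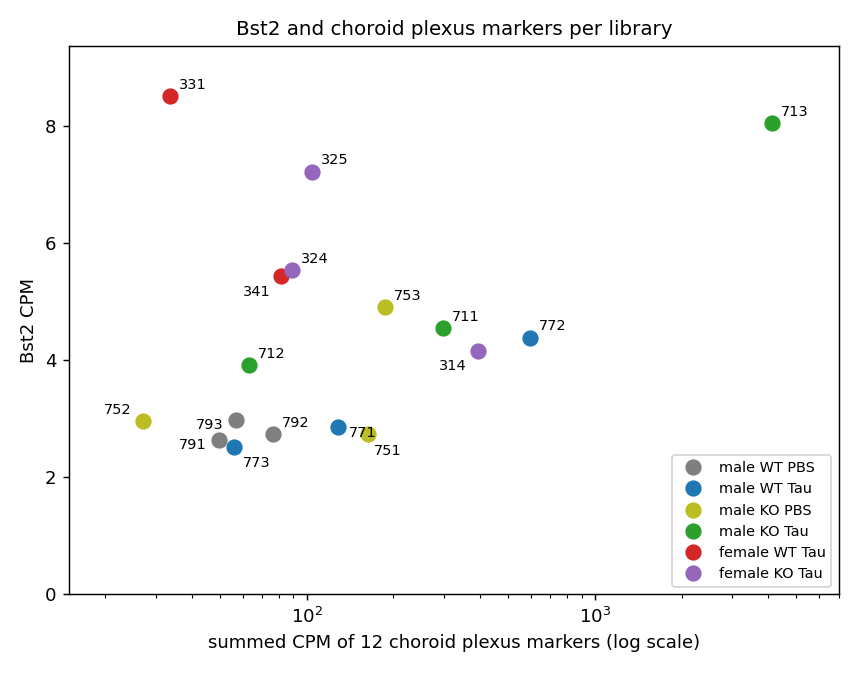
Bst2 in CPM (vertical axis) against the summed CPM of 12 choroid plexus markers (horizontal axis, log scale), with 1 point per library. Male KO Tau library 713 has 8.05 CPM of Bst2 at a marker sum of 4123 CPM, while female library 331 has 8.51 CPM of Bst2 at a marker sum of 33.6 CPM.

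Under AD tau alone, KO and WT males differed in no member by edgeR FDR (0.00662% of genes), and Bst2 was the 1 member with an unadjusted p under 0.05 (4.71% of genes), at a log2 fold change, KO minus WT, of 0.79 (SE 0.32, adjusted p = 0.927). The lowest estimate was that of Rtp4, at -0.33. Within KO males Tau against PBS gave 0 calls (0% of genes) and 0 members with an unadjusted p under 0.05 (7.95% of genes), with estimates from -0.19 for Isg15 to 0.59 for Bst2 (-0.33 and 0.49 without library 752). The genotype by treatment interaction in males gave 0 calls (0% of genes) and 0 members with an unadjusted p under 0.05 (4.18% of genes), with estimates from -0.39 for Ifit1 to 0.39 for Bst2 (-0.23 and 0.28 without library 752). These comparisons share libraries and are not independent of each other.

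Averages over the male groups gave smaller errors. For Tau against PBS over both genotypes 0 members were called (0% of genes) and 0 had an unadjusted p under 0.05 (5.38% of genes), with estimates from -0.09 for Stat2 to 0.40 for Bst2 (-0.08 and 0.35 without library 752). For KO against WT over both treatments 0 members were called (0.00662% of genes) and 1, Bst2, had an unadjusted p under 0.05 (4.58% of genes), with a log2 fold change of 0.59 (SE 0.23, adjusted p = 0.945), or 0.65 without library 752. DESeq2 and limma-voom on the same libraries called none of the members in any of these 8 male comparisons. They called at most 0.302% (DESeq2) and 0.0729% (limma-voom) of all genes in any of them. By edgeR no gene of the 6 interferon lists was called in these 8 comparisons either.

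Female KO Tau and female WT Tau libraries were compared last. No member was called (0.00649% of genes) and none had an unadjusted p under 0.05 (2.89% of genes), by edgeR. DESeq2 (0.00499% of genes called) and limma-voom (0.00649%) also called none. The estimates, KO minus WT, were below 0 for 8 of 9 members and ran from -0.67 for Rtp4 (95% interval -1.37 to 0.03) to 0.19 for Stat2, with -0.25 for Bst2. Stat2 alone, 1 of 9, was above 0, beside 48.0% of all genes. KO library 314 was the lowest female library for each of the 8 members below 0. All 9 members overlapped between the 2 groups. The sex by genotype interaction gave 0 calls (0% of genes) and 1 member, Bst2, with an unadjusted p under 0.05 (2.94% of genes), at a log2 difference of -1.04 (SE 0.47, edgeR adjusted p = 0.978). Without library 713 this Bst2 difference was -0.66. Its counterpart at the other end was Stat2, at 0.26.

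Over all 6 groups together, 2 of 9 members, Rtp4 and Ifit3, differed by an edgeR test of any difference (adjusted p = 0.0143 and 0.0475), where 19.0% of 15594 genes did. The adjusted p was 0.0511 for Bst2 and 0.0590 for Ifit1. The count was 5 with DESeq2 (27.3% of all genes called) and with limma-voom (45.6%). It was 0 with the microglia score as a covariate (0 with an unadjusted p under 0.05, 0.0513% of all genes called) and 0 without library 331 (3 with an unadjusted p under 0.05, 10.4% of all genes called). It was 1 without any one of 791, 792, 793, 773, 324 and 325, and 4 without 772 or without 314.

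The genes most like the members were ranked by Pearson r between their log2 CPM and the mean standardized level of the 9 members over 17 libraries. The 10 highest were Eln (0.95), Trim25 (0.94), Ifitm3, Cd48, Gbp3, Id1, Rcn3, Ifi27l2a, Srgn and Lrig1, the last with 0.89. Of these 10 genes 4, Trim25, Ifitm3, Gbp3 and Ifi27l2a, belonged to the interferon lists, which make up 0.764% of the 15585 genes ranked. Eln encodes elastin, Cd48 a surface protein of leukocytes and Srgn a proteoglycan of blood-derived cells. Each of the 10 genes had its highest library among female libraries 331 and 325, so that the ranking carries the separation of the sexes. With group means subtracted, 2 of the 10 highest were in the lists.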

How the data were processed

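Bulk poly(A) RNA sequencing of dorsal hippocampus covered 17 libraries in 6 groups, taken from the labels. The authors aligned reads with STAR 2.5.2 to GRCm38 and counted them over exons with HTSeq 0.9.1, set to reverse strand. What they deposited is a table of raw read counts per gene symbol, without normalization. The annotation release is not given in the sources used here. The series description calls the libraries of a group biological replicates. No 2 libraries had identical counts.

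The test was edgeR's (4.0.16, under R 4.3.3) quasi-likelihood F-test on the counts (TMM factors, filterByExpr with a minimum count of 10 and a minimum total of 15, Benjamini-Hochberg adjustment over all genes, FDR 0.05). Male contrasts came from 1 fit of 12 libraries (15098 genes), contrasts with females from 1 fit of 11 Tau libraries (15419 genes) and the test of any difference from all 17 (15594 genes). All 9 members passed the filter in each fit. The study's own test was DESeq2 on male libraries, here run as an alternative (1.42.0), with limma 3.58.1 (voom with quality weights), RLE factors, no filter, marker score covariates, compared groups alone and each library left out. CPM is scaled to total counts, and log2 CPM used a prior count of 2. The code was tested on simulated data.

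The members and gene lists were chosen with earlier results of these data known. All 9 members were named, with Acss2 and Irf9. Some list genes are not reported here. Of each list at most 3 genes per direction past the FDR were named, by size, and the 10 genes most like the members. Ligand genes at 0, list genes described by level and library numbers were named after their values were seen. Promoters came from RefSeq (GRCm38.p6), and gene positions from the GENCODE annotation of GRCm38.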

Additional observations from a re-analysis of the deposited data

How the results depend on the processing

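No paired analysis was possible because no 2 groups share a replicate number. In the comparison of sexes under Tau, the number of members called (6) was 0 with the microglia score as a covariate, 1 with the choroid plexus score and 0 to 7 with 1 library left out. Over all genes 6, 1618 and 628 to 6290 were called in these fits, against 3674. The median log2 fold change of the members was 0.013 with the microglia score, and the estimates of Irf7 (-0.23), Usp18 (-0.10) and Ifit3 (-0.0061) turned below 0. DESeq2, RLE factors, no filter, voom and all 17 libraries in 1 fit gave 6 or 7. In the test of any difference the count (2) was 5 with DESeq2, 5 with voom, 0 with the microglia score and 0 to 4 with 1 library left out.

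For KO Tau against WT PBS in males, 1 member was called by DESeq2 without library 711, and 0 without 712 or 713, the study's own test having used 2 of these 3 libraries. The median log2 fold change was -0.21 with the microglia score and -0.21 with the choroid plexus score. With 1 library left out, medians ran from -0.061 to 0.28 here, from -0.24 to 0.31 for Tau in WT males, from -0.28 to 0.30 for genotype under Tau in males and from -0.43 to 0.29 for the male interaction.

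With the choroid plexus score the Bst2 estimate turned to -0.13 for Tau in WT males and -0.021 for Tau averaged over male genotypes. Signs with 1 library left out are given here for Bst2 and for the lowest and highest estimate of each comparison. They turned for Ifit1 (-0.25 to 0.83) and Bst2 (-0.064 to 0.37) for Tau in WT males and for Irf7 (-0.87 to 0.077) for genotype after PBS. Isg15 turned for KO Tau against WT PBS (-0.44 to 0.0058) and for Tau in KO males (-0.45 to 0.34). Ifit1 turned in the male interaction (-0.71 to 0.37) and Bst2 for genotype in females (-0.52 to 0.068). Further members changed sign over all alternatives. Examples for Tau in WT males were Irf7 (-0.52 to 0.18), Usp18 (-0.25 to 0.40), Isg15 (-0.21 to 0.29), Ifit3 (-0.24 to 0.37) and Oasl2 (-0.28 to 0.31). For genotype in females they were Irf7 (-0.54 to 0.013), Usp18 (-0.48 to 0.24), Isg15 (-0.80 to 0.075) and Ifit3 (-0.38 to 0.18). None of these was called. Of the 10 genes most like the members, 2 were in the interferon lists by Spearman rho, 2 as deviations from group means and 1 to 5 with 1 library left out (1 without 751, 2 without 772 or 314), against 4. The cause of these shifts was not tested. With 2 or 3 libraries a group and 10 to 51 counts of Usp18, differences of about 2-fold or less were often not detectable. Bst2, 1.99-fold higher in KO Tau than in WT PBS males, was not called (edgeR adjusted p = 0.783).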
